A study of Mus musculus with 96 samples.

Results

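The 9 genes named for their roles in epithelial-mesenchymal transition were followed in the mouse through normal liver, tumours, metastases and cultured organoids: the transcription factor genes Zeb1, Zeb2, Snai1, Snai2, Twist1 and Twist2, the cadherin genes Cdh1 and Cdh2, and Vim. They were chosen by symbol, and 9 of 9 were found among the 34591 gene symbols of the deposited count tables. In an epithelial-mesenchymal transition, epithelial cells loosen their contacts and take on traits of mobile, fibroblast-like cells. Factors of the Zeb, Snail and Twist families bind short E-box sequences, through which the Zeb and Snail factors repress epithelial genes such as Cdh1, while Cdh2 and Vim are common mesenchymal markers. In liver these labels need care, because hepatocytes carry N-cadherin (Cdh2) as well as E-cadherin (Cdh1), and vimentin is abundant in fibroblasts, stellate cells, endothelium and leukocytes.

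The Zeb genes are classical targets of the miR-200 family, so the 5 mature miR-200 sequences are printed here from RefSeq (mouse build GRCm38.p6). They are written 5′ to 3′, with the seed, bases 2 to 8, in capitals. The first 3 share 1 seed and the last 2 share another.
mmu-miR-200b-3p: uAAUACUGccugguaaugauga
mmu-miR-200c-3p: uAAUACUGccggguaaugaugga
mmu-miR-429-3p: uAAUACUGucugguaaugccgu
mmu-miR-200a-3p: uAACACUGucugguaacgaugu
mmu-miR-141-3p: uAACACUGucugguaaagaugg

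RefSeq promoter entries matched 5 of the 9 members (Zeb2, Snai1, Twist1, Twist2 and Vim), and the 250 bases upstream of each listed start were searched on both strands. The motifs were the E-box CANNTG, its form CACCTG, which Snail and Zeb factors are known to bind and which lies within CANNTG, and the AP-1 motif TGACTCA. Of the 32851 mouse promoter entries, 17.2% held CACCTG, 66.2% held any CANNTG and 4.46% held the AP-1 motif. Of the 8 windows of the members, 1 held a CACCTG, that of Snai1, whose product is itself an E-box binding repressor, and this was also its only CANNTG. 1 of the 4 Zeb2 windows held 2 TGACTCA motifs, 1 on each strand. The windows of Snai1 (chr2:167537945-167538194, plus strand) and Vim (chr2:13574061-13574310, plus strand) and that Zeb2 window (chr2:45110278-45110527, minus strand) are printed from GRCm38.p6, 5′ to 3′ along the gene's strand, with motif matches in capitals. They are shown because Snai1 had the only CACCTG, Vim none of the motifs and this Zeb2 window the AP-1 motifs. In the Snai1 window the CACCTG begins 126 bases before the start. A match is a stretch of letters and not a measured binding site.
Snai1: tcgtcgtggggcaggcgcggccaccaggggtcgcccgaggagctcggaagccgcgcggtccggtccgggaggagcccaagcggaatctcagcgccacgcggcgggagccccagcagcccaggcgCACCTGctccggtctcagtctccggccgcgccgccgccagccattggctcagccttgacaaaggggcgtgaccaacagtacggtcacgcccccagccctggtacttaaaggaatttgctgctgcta
Vim: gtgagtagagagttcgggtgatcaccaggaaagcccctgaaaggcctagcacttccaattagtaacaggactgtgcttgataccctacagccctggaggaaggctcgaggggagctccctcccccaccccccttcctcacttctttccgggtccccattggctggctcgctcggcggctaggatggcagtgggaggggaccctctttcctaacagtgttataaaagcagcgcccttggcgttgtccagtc
Zeb2: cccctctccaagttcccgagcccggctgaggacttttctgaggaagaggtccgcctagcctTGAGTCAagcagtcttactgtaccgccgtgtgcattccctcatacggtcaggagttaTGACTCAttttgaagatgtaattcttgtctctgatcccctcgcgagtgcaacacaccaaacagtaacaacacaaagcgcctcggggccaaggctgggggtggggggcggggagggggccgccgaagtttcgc

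RNA was sequenced in 96 libraries of 14 groups, with no treatment given per the labels. Dissected tissue comprised normal liver (n = 6), PPTR primary tumours (11), PPTR metastases (5, from the intestine, lung, peritoneum and liver), PNR primary tumours (9), LCS-driven primary tumours (10), LCS-driven lung (5) and peritoneal (3) metastases, HBS1-driven primary tumours (2), HBS1_F2-driven primary tumours (2) and HBS1_F2-driven metastases (3). Cultured organoids, that is, cells grown in 3 dimensions, comprised normal liver organoids (6), 19 libraries of 5 liver cancer lines (LCS1 to LCS5), 11 libraries of 6 lines (HBS1 to HBS6) and HBS1_F2 organoids (4). The labels do not expand PPTR, PNR, LCS, HBS or F2, give no genotype, strain or age, and do not say how the tumours that carry a line's name were made, nor which libraries came from separate animals. P-values therefore measure the spread between libraries, which may be technical.

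Levels are counts per 1000000 gene reads (CPM), scaled by TMM over all 96 libraries. Adjusted p-values come from edgeR's quasi-likelihood test with Benjamini-Hochberg adjustment over all genes of a comparison, and a call means an adjusted p under 0.05. Fold changes are log2 values from the fit of each comparison, ± standard error. Totals over genes ran from 4.39 M to 87.1 M reads per library (median 29.5 M). Reads in ribosomal repeats made up 9.63% to 22.7% of gene reads in normal liver, against group medians of 0.301% to 2.79% in the other groups. PNR tumours, LCS-driven tumours and normal organoids did not reach the liver range (at most 5.69%), so there the share and the tissue cannot be told apart, and PPTR primary tumours 3 and 8 did (13.3% and 15.9%). With that share as a covariate, edgeR called 0 members in PPTR tumours, PNR tumours or normal organoids against liver, and 3 in LCS-driven tumours against liver (Snai1, Cdh1 and Vim). Peritoneal metastasis 1 of the LCS-driven group had the highest share, 34.9%, and the fewest reads. The share of the ribosomal protein pseudogene Rpl34-ps1 in the summed counts of Rpl34 and Rpl34-ps1, which was either low or high in whole groups, stood apart in 2 libraries. It was 7.80% in normal liver 6, against 75.7% to 80.3% in the other 5 livers, and 84.8% in HBS1_F2 organoid 2, against 8.11% to 19.3% in the other 3. Fold changes fitted without normal liver 6 are printed by name only for PPTR tumours against liver. Those without HBS1_F2 organoid 2 are printed only for HBS1_F2 against HBS1 organoids.

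**Figure D1:**
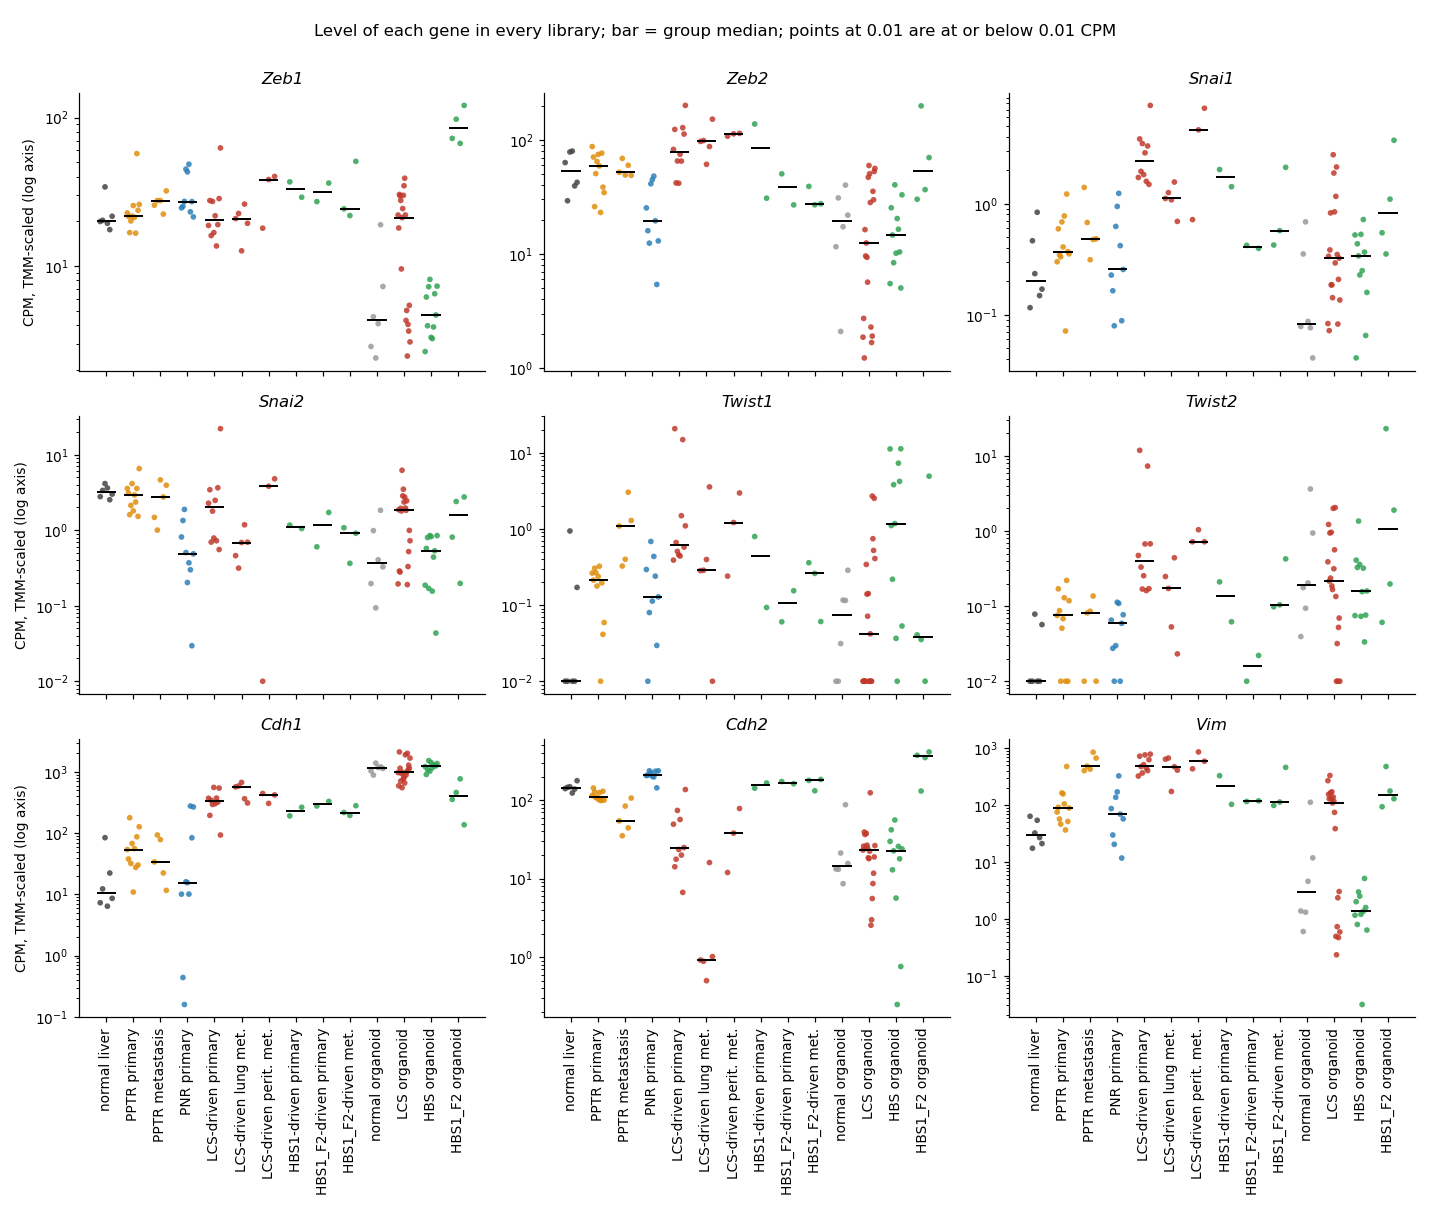
Levels of the 9 members in all 96 libraries, as CPM on a log axis, 1 panel per gene and 1 column of points per group, with a bar at the group median and libraries at or below 0.01 CPM drawn at 0.01. Cdh1 was highest in the organoid groups (medians of 984 to 1257 CPM in normal, LCS and HBS organoids) and lowest in normal liver (10.5 CPM), while Vim ran from 1.36 CPM in HBS organoids to 593 CPM in LCS-driven peritoneal metastases.

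Zeb1 and Zeb2 encode zinc-finger repressors of epithelial genes. Zeb1 was highest in the HBS1_F2 organoids, at 72.4, 97.5, 67.0 and 121 CPM, and lowest in normal liver organoids, at 2.40 to 19 CPM (median 4.32), and HBS organoids, at 2.65 to 8.13 CPM (median 4.68). Between these, 11 groups had medians of 20.1 to 38.3 CPM, among them normal liver (17.6 to 34.1 CPM, median 20.1). In the order of the 14 group medians, 2 pairs of neighbours had ranges that did not overlap: HBS1_F2 organoids above LCS-driven peritoneal metastases, and normal liver above HBS organoids.

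Zeb2 followed a different order. The LCS-driven metastases had the highest medians, with 108, 113 and 114 CPM in the peritoneal and 61.0 to 152 CPM in the lung metastases. The 2 HBS1-driven primary tumours, at 30.8 and 138 CPM, and the LCS-driven primary tumours, at 41.7 to 200 CPM (median 78.6), came next. Normal liver held 29.2 to 79.7 CPM (median 52.8), PPTR primary tumours 23.1 to 87.3 CPM (median 59.1) and PNR primary tumours 5.40 to 48.1 CPM (median 19.5). All 13 pairs of neighbours in this order overlapped, so the order of neighbouring groups was not beyond the spread between libraries.

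Snai1 and Snai2 encode the Snail and Slug repressors, and both were rare transcripts. Snai1 reached 1.49 to 7.67 CPM (median 2.41) in LCS-driven primary tumours and 0.719, 4.62 and 7.24 CPM in the peritoneal metastases, while normal liver had 0.116 to 0.838 CPM (median 0.203), PPTR primary tumours 0.0715 to 1.22 CPM (median 0.371) and normal liver organoids 0.0409 to 0.687 CPM (median 0.0829). Snai2 was at 2.53 to 4.15 CPM (median 3.19) in normal liver and 1.53 to 6.54 CPM (median 2.93) in PPTR primary tumours, and at 0.0295 to 1.89 CPM (median 0.486) in PNR primary tumours. The PNR range lay wholly below that of normal liver. LCS-driven primary tumour 10 carried 22.1 CPM of Snai2, against at most 3.65 CPM in the other 9.

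Twist1 and Twist2 encode basic helix-loop-helix factors of mesoderm and were near the floor of detection in liver. Twist1 had no read in 4 of 6 normal livers and 0.939 CPM at most. Single tumours departed from their group: LCS-driven primary tumours 2 and 8 held 20.7 and 14.8 CPM of Twist1 against 0.389 to 1.49 CPM in the other 8, and the same 2 libraries held 11.9 and 7.32 CPM of Twist2 against 0.161 to 0.676 CPM in the rest. Twist2 was represented by 2 reads in all 6 normal livers together and by 937 in the LCS-driven primary tumours. The ratio of levels was 132 (95% exact interval of 36.4 to 1091, which covers counting error only). The 937 reads include those of tumours 2 and 8, and the ratio without these tumours is not given. In culture, Twist1 was at 4.20 to 11.3 CPM in the 3 libraries of line HBS5 and 7.29 CPM in HBS4, and no LCS1 library had a read.

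Cdh1 and Cdh2, the genes of E-cadherin and N-cadherin, which join epithelial cells and hepatocytes to their neighbours, differed in where they were high. Cdh1 was at 6.42 to 84.4 CPM (median 10.5) in normal liver, 10.9 to 179 CPM (median 54.0) in PPTR primary tumours, 0.159 to 277 CPM (median 15.5) in PNR primary tumours, 93.2 to 559 CPM (median 333) in LCS-driven primary tumours and 889 to 1393 CPM (median 1160) in normal liver organoids. Cdh2 was at 123 to 177 CPM (median 143), 98.7 to 143 CPM (median 108), 144 to 236 CPM (median 209), 6.69 to 137 CPM (median 24.2) and 8.63 to 87.6 CPM (median 14.5) in the same 5 groups. Over all 96 libraries the Spearman correlation of the 2 genes was -0.67, the lowest of the 36 pairs of members, a description over libraries that share tissue and line.

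Vim encodes the intermediate filament vimentin. It was at 17.5 to 63.9 CPM (median 29.7) in normal liver, 36.7 to 479 CPM (median 89.2) in PPTR primary tumours, 326 to 791 CPM (median 498) in LCS-driven primary tumours and 0.0312 to 5.14 CPM (median 1.36) in HBS organoids. All 10 LCS-driven primary tumours lay above all 6 livers, and all 11 HBS organoid libraries below them.

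**Figure D2:**
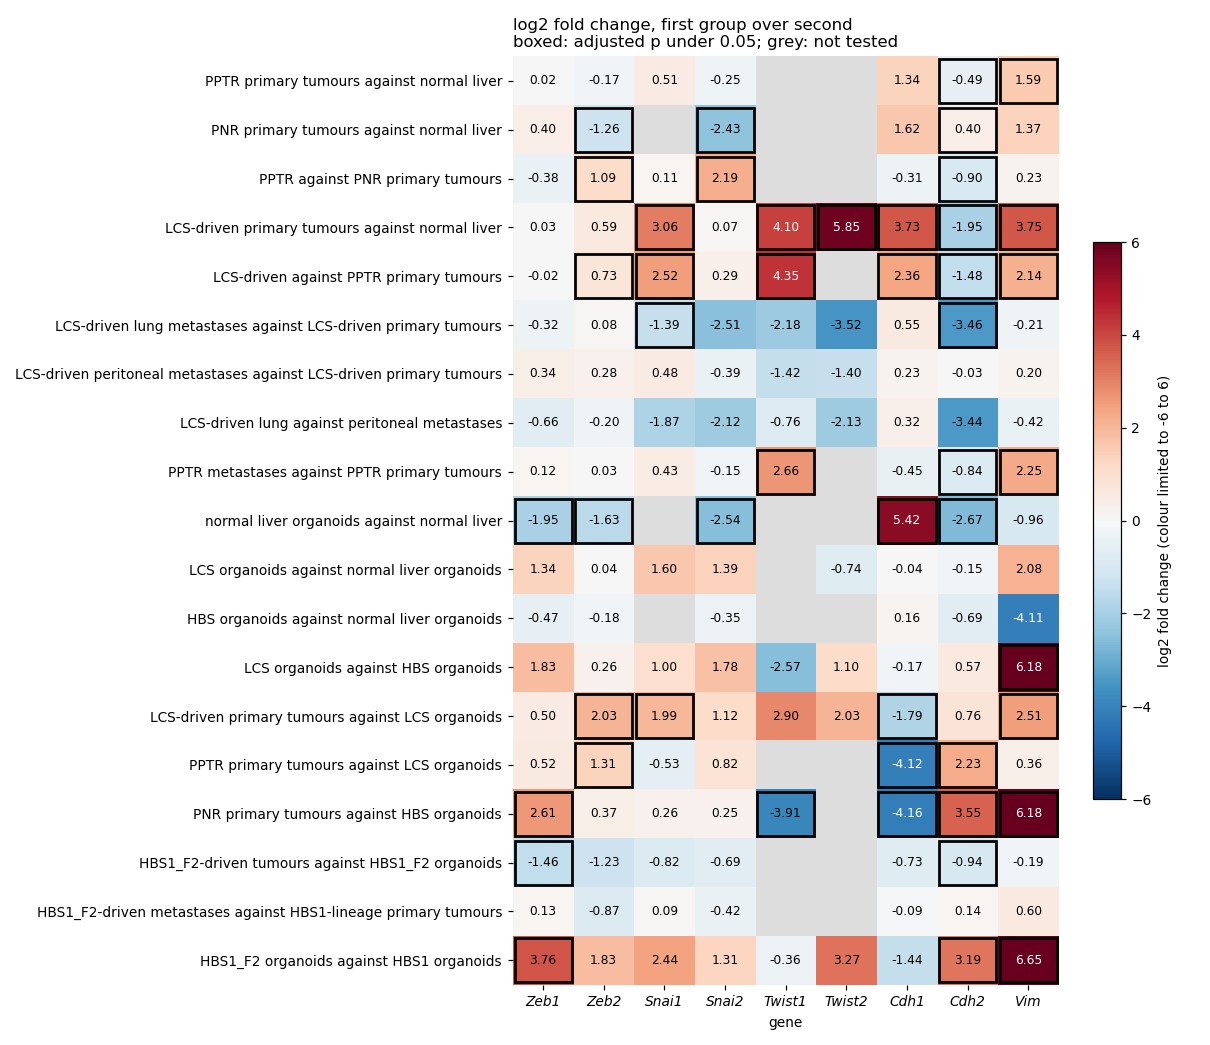
Fitted log2 fold changes of the 9 members (columns) in each comparison (rows), first group over second, as numbers on a colour scale from -6 (blue) to 6 (red), boxed where the adjusted p was under 0.05 and grey where a gene was not tested. Vim had large called changes in HBS1_F2 against HBS1 organoids (6.65) and in LCS against HBS organoids and PNR tumours against HBS organoids (6.18 in both). Lines LCS4 and LCS5 lay within the HBS organoid range of Vim.

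PPTR primary tumours were compared with normal liver to find what differs in the tumour tissue. Cdh2 fell by 0.49 on the log2 scale (± 0.10, adjusted p = 0.00212) and Vim rose by 1.59 ± 0.50 (adjusted p = 0.0230), while their ranges overlapped those of liver. These were 2 of the 7 members tested, against 31.1% of all 15305 genes tested (17.3% higher, 13.8% lower). Cdh1 was 1.34 ± 0.61 higher (adjusted p = 0.105). Without normal liver 6, Vim gave 1.46 ± 0.54 (adjusted p = 0.0547), and without normal liver 3, the library with 84.4 CPM of Cdh1, Cdh1 gave 2.33 (adjusted p = 0.00703). In this and all other bulk comparisons, fewer cells of a type and less RNA per cell cannot be told apart.

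PNR primary tumours differed from liver in other members. The library identifiers in the labels fall into unexplained series, and none held both PNR tumours and livers. Series and tissue therefore cannot be told apart here. The Rpl34-ps1 share was 5.08% to 8.48% in PNR tumours, and of the livers only normal liver 6 was as low. Zeb2 fell by 1.26 ± 0.40 (adjusted p = 0.0175) and Snai2 by 2.43 ± 0.54 (adjusted p = 0.00191), and Cdh2 rose by 0.40 ± 0.12 (adjusted p = 0.0150). They made up 3 of 6 members tested, against 47.7% of all 15739 genes (26.4% higher, 21.3% lower), whose median change was 0.11. Cdh1 split the group: PNR tumours 7, 8 and 9 held 277, 84.1 and 268 CPM and the other 6 held 0.159 to 16.1 CPM. The fitted change of 1.62 ± 1.22 was not called (adjusted p = 0.286). Biliary marker sums split the same way, with 13204, 5595 and 16261 CPM against 720 to 1277 CPM in the other 6. Their part in the Cdh1 split was not tested. Tumours 7 and 9 were also a closely matching pair (a spread of 0.181 log2 units), so the split may rest on fewer distinct tumours. Without normal liver 3, Zeb1 was also called higher (0.55, adjusted p = 0.0409). Several PNR libraries resembled each other closely (a spread of 0.136 to 0.181 log2 units over well-counted genes in the 5 closest PNR pairs, against sampling noise of 0.050 to 0.070). With those sets summed, Cdh2 gave 0.36 ± 0.16 (adjusted p = 0.0849). In the same comparison, 6 of 9 leukocyte markers tested and 4 of 8 endothelial markers were lower in PNR tumours; the leukocyte sum was 78.5 to 448 CPM against 407 to 2061 CPM in liver, and 4 of 6 biliary markers were higher. Their part in the result was not tested.

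Compared directly, PPTR primary tumours held more Zeb2 (1.09 ± 0.34, adjusted p = 0.0108) and Snai2 (2.19 ± 0.47, adjusted p = 0.000687) and less Cdh2 (-0.90 ± 0.10, adjusted p = 8.38e-07) than PNR primary tumours. The Cdh2 ranges did not overlap, with 143 CPM in the highest PPTR library and 144 CPM in the lowest PNR library. The calls were 3 of 7 members, against 50.7% of all 15645 genes (24.2% higher, 26.5% lower). None of the identifier series held libraries of both tumour kinds, so series and tumour kind cannot be told apart here. Rpl34-ps1 also separated them fully: no PPTR library had a share below 81.3% and no PNR library one above 8.48%. Whether series or this share had a part in the calls was not tested. A fit with the closely matching PNR libraries summed is not given for this comparison. Without PPTR primary tumour 9, whose endothelial marker sum of 1743 CPM was the highest of any library, Zeb1 was also lower in PPTR tumours (-0.59, adjusted p = 0.00479). Of the fibroblast and stellate cell markers, 9 of 14 were higher in PPTR tumours, with sums of 380 to 2032 CPM against 204 to 830 CPM. Of the leukocyte markers 5 of 8 tested were higher (sums of 347 to 1437 CPM against 78.5 to 448 CPM) and of the endothelial markers 4 of 8, while 3 of 6 biliary markers were lower. Their part in the result was not tested.

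LCS-driven primary tumours carried more E-cadherin and more vimentin transcript than liver at the same time, and less N-cadherin. Snai1 rose by 3.06 ± 0.52 (adjusted p = 8.06e-05), Twist1 by 4.10 ± 1.36 (adjusted p = 0.0146), Cdh1 by 3.73 ± 0.60 (adjusted p = 4.73e-05) and Vim by 3.75 ± 0.35 (adjusted p = 1.94e-07). Twist2 was called higher (adjusted p = 0.00516; its ratio is given above), and Cdh2 fell by 1.95 ± 0.48 (adjusted p = 0.00200). For Snai1, Twist2, Cdh1 and Vim the 10 tumours and 6 livers did not overlap, and for Cdh2 tumour 10 alone, at 137 CPM, reached the liver range. Without normal liver 3 the changes of Twist1 and Cdh1 were 5.98 and 4.70. Those of Twist1 and Twist2 include LCS-driven tumours 2 and 8, which held far more than the rest, and values without them are not given. The calls were 6 of 9 members, against 63.4% of all 16426 genes (35.1% higher, 28.3% lower), whose median change was 0.13. Snai2 gave 0.07 ± 0.71 (adjusted p = 0.936), and -0.99 (adjusted p = 0.0484) without tumour 10. Fibroblast and stellate cell markers moved with these genes: 10 of 14 were higher and 1 lower, their sum was 3000 to 85962 CPM in the tumours and 421 to 1019 CPM in liver, and all 14 had reads in both groups. All 8 hepatocyte markers were lower, and 5 of 6 biliary markers were higher (sums of 2327 to 7643 CPM against 51.9 to 164 CPM). Their part in the result was not tested.

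Against PPTR primary tumours the LCS-driven primary tumours showed 6 calls among 8 members, against 56.6% of all 15926 genes (28.6% higher, 28% lower). Snai1 was 2.52 ± 0.35 higher (adjusted p = 3.93e-06) and Twist1 4.35 ± 0.83 higher (adjusted p = 0.000152), both with no overlap of the 2 groups, the PPTR tumours holding at most 0.323 CPM of Twist1. Cdh1 (2.36 ± 0.39, adjusted p = 3.25e-05), Vim (2.14 ± 0.36, adjusted p = 3.82e-05) and Zeb2 (0.73 ± 0.27, adjusted p = 0.0234) were higher and Cdh2 (-1.48 ± 0.37, adjusted p = 0.00199) lower, with overlap. This comparison and the one of LCS-driven tumours with liver share the LCS-driven libraries. For Twist1, LCS-driven tumours 2 and 8 stood far above the rest of their group, at up to 20.7 CPM. The Twist1 medians were 0.619 CPM in LCS-driven and 0.212 CPM in PPTR tumours, and the lowest LCS-driven value was 0.389 CPM. Twist1 changes without tumours 2 and 8 are not given. The fibroblast and stellate list again moved along, with 11 of 14 markers higher and 1 lower, as did the biliary list, with 4 of 6 higher, and the hepatocyte list, with 6 of 8 lower. Their part was not tested. Without LCS-driven primary tumour 10, Zeb2 gave 0.54 ± 0.25 (adjusted p = 0.0653), and without PPTR primary tumours 10 and 11, whose deposited tables carry another unexplained code than the other 9, it gave 0.63 ± 0.28 (adjusted p = 0.0671). The labels' library identifiers fall into series that are not explained, and 2 of them hold both groups. Within the larger (7 LCS-driven, 8 PPTR libraries) 5 members were called, all but Zeb2, and within the smaller (3 and 3) none was: the changes there were 2.62 for Snai1, 5.61 for Twist1, 1.90 for Cdh1, 1.56 for Vim, 1.52 for Zeb2 and -1.03 for Cdh2.

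LCS-driven lung metastases had almost no N-cadherin transcript. Cdh2 was at 0.920, 0.887, 0.502, 16 and 1.02 CPM, where the primary tumours held 6.69 to 137 CPM, so that only lung metastasis 4 lay inside the range of the primaries. The fitted change was -3.46 ± 0.96 (adjusted p = 0.0226). Snai1, at 0.693 to 1.57 CPM in the lung metastases, fell by 1.39 ± 0.45 (adjusted p = 0.0470). These were 2 of 9 members, against 14.8% of all 18454 genes (7.73% higher, 7.03% lower). Both calls were lost without lung metastasis 1, 2, 3 or 5 (adjusted p of 0.0517 to 0.0663 for Cdh2 and 0.0921 to 0.105 for Snai1). Without lung metastasis 4 the Cdh2 change was -5.71. With the identifier series as a covariate the adjusted p was 0.229 for Cdh2 and 0.192 for Snai1. The Snai1 call was also lost without LCS-driven primary tumour 10 (adjusted p = 0.0581) or peritoneal metastasis 2 (adjusted p = 0.0549), which shares the fit. Lung metastases 1 and 2 were the closest pair of libraries of any group (a spread of 0.132 log2 units against sampling noise of 0.051), and with them summed Cdh2 gave -3.21 ± 1.03 (adjusted p = 0.0655) and Snai1 -1.40 ± 0.51 (adjusted p = 0.100). All 6 lung epithelium markers were higher in the lung metastases (sums of 858 to 1953 CPM against 4.25 to 22 CPM), 3 of 14 fibroblast and stellate cell markers were lower (1124 to 6910 CPM against 3000 to 85962 CPM) and 5 of 8 hepatocyte markers were lower (416 to 917 CPM against 644 to 41565 CPM). Their part in the result was not tested.

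Peritoneal metastases of the LCS-driven group, at 12, 38.0 and 78.3 CPM of Cdh2 and 437, 865 and 593 CPM of Vim, lay within the range of the primary tumours except for 1 higher Vim value. By edgeR 0 of 9 members were called against primary tumours, where 0.883% of all genes were (0.125% higher, 0.759% lower), 0 members had an unadjusted p under 0.05 and DESeq2 called 0. Between lung and peritoneal metastases edgeR called 0 of 9 members as well (0.862% of all genes, 0.623% higher and 0.238% lower), while 2 had an unadjusted p under 0.05 and DESeq2 called 2, Snai1 (-1.88) and Cdh2 (-3.44). Without lung metastasis 4, edgeR called Cdh2 lower in the lung (-5.66 ± 0.93, adjusted p = 0.00626).

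PPTR metastases moved apart from PPTR primary tumours in Twist1, Cdh2 and Vim. Twist1 was at 1.09, 0.325, 0.399, 3.03 and 1.29 CPM, all above the highest primary (0.323 CPM), and was 2.66 ± 0.53 higher (adjusted p = 0.00113). Vim was at 406, 487, 432, 856 and 675 CPM, above 10 of the 11 primaries, and was 2.25 ± 0.45 higher (adjusted p = 0.00119), and Cdh2 fell by 0.84 ± 0.21 (adjusted p = 0.00564). The 3 calls among 8 members compare with 31.7% of all 16246 genes (15.5% higher, 16.3% lower), and all 3 held in every leave-one-out fit, the change of Twist1 being 1.98 without metastasis 4. Fibroblast and stellate cell sums were 1760 to 4824 CPM in the metastases and 380 to 2032 CPM in the primaries, with 4 of 14 markers higher and 1 lower. Leukocyte sums were 1398 to 3207 CPM against 347 to 1437 CPM, and hepatocyte sums 6111 to 37068 CPM against 33509 to 123970 CPM, while 5 of 6 biliary markers were higher (2914 to 14092 CPM against 462 to 11137 CPM). The part of these lists in the result was not tested.

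Normal liver organoids were compared with liver to see what differs between cultured liver cells and whole tissue. In them Cdh1 rose by 5.42 ± 0.66 (adjusted p = 4.44e-06), and Zeb1 fell by 1.95 ± 0.43 (adjusted p = 0.000991), Zeb2 by 1.63 ± 0.49 (adjusted p = 0.00808), Snai2 by 2.54 ± 0.57 (adjusted p = 0.00103) and Cdh2 by 2.67 ± 0.49 (adjusted p = 0.000216). For Cdh1, Snai2 and Cdh2 the 6 organoid libraries and 6 livers did not overlap, and for Zeb1 organoid 5 alone, at 19 CPM, reached the liver range. Without organoid 5 the changes were -2.58 for Zeb1, -3.16 for Snai2 and -3.51 for Cdh2, and without normal liver 3 that of Cdh1 was 6.49. The calls were 5 of 6 members, against 74.1% of all 15000 genes (38.1% higher, 36% lower). Vim was at 1.38, 0.60, 1.31, 4.59, 113 and 11.9 CPM and gave -0.96 ± 1.01 (adjusted p = 0.401), and without normal organoid 5 it gave -3.44 ± 0.69 (adjusted p = 0.000516). All 14 fibroblast and stellate cell markers were lower in the organoids, with sums of 2.05 to 7.40 CPM against 421 to 1019 CPM, and all 8 endothelial and 7 of 9 leukocyte markers were lower too. All 8 hepatocyte markers were lower (sums of 58.7 to 130 CPM against 52386 to 94550 CPM) and all 6 biliary markers higher (1664 to 3433 CPM against 51.9 to 164 CPM). In this design a different makeup of cell types and a change of the members within cells cannot be told apart. The Rpl34-ps1 share was 7.14% to 8.70% in the organoids, and of the livers only normal liver 6 was as low. The part of what this share marks was not tested.

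**Figure D3:**
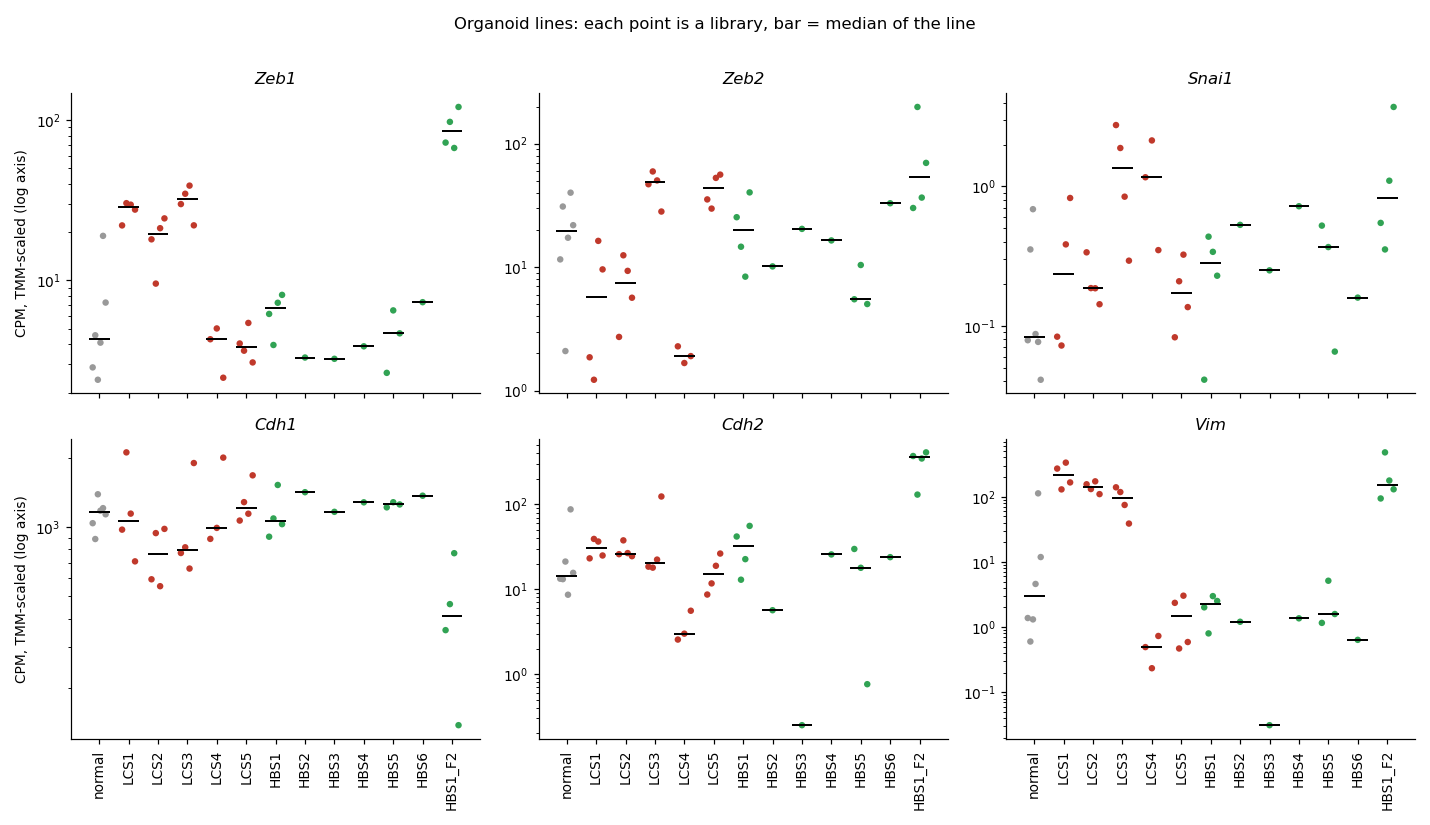
Levels of 6 members in each organoid line, as CPM on a log axis, with 1 point per library and a bar at the median of the line. Vim was at 38.7 to 333 CPM in lines LCS1, LCS2 and LCS3 and at 0.234 to 3.03 CPM in LCS4 and LCS5.

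Within the LCS organoids the lines differed widely in Vim, Zeb1, Zeb2 and Cdh2 and less in Cdh1. Vim was at 270, 130, 333 and 166 CPM in LCS1, 155, 131, 172 and 110 CPM in LCS2 and 139, 118, 74.8 and 38.7 CPM in LCS3, but at 0.49, 0.234 and 0.730 CPM in LCS4 and 2.35, 0.469, 3.03 and 0.589 CPM in LCS5. The libraries of 1 line stayed together, and the first 3 lines did not overlap the last 2. Zeb1 divided the lines the same way, with 9.56 to 39.0 CPM in LCS1 to LCS3 and 2.47 to 5.44 CPM in LCS4 and LCS5. Zeb2 did not: LCS3 and LCS5 held 28.2 to 59.6 CPM and the other 3 lines 1.22 to 16.3 CPM. This grouping of lines was read from the values and carries no test. Cdh1 stayed at 553 to 2121 CPM in all 19 LCS libraries, whether or not Vim was present.

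With lines as replicates, edgeR called 0 of 8 members between LCS and normal liver organoids (5.11% of all 15563 genes, 3.24% higher and 1.86% lower), 0 members had an unadjusted p under 0.05 and DESeq2 called 0. For HBS against normal liver organoids edgeR called 0 of 6 members (0.0467% of all 14994 genes, which is 7 genes, 0.00667% higher and 0.04% lower), 1 member had an unadjusted p under 0.05 and DESeq2 called 2. Between LCS and HBS organoids Vim was 6.18 ± 1.33 higher in the LCS lines (adjusted p = 0.0351), 1 of 9 members where 3.65% of all 18039 genes were called (2.76% higher, 0.898% lower). This call was lost without line LCS1 (adjusted p = 0.0805), LCS2 (0.0772) or LCS3 (0.0613). The difference did not hold for every line: LCS4 and LCS5, at 0.234 to 3.03 CPM of Vim, lay inside the HBS range of 0.0312 to 5.14 CPM. Zeb1 gave 1.83 ± 0.53 (adjusted p = 0.0734), and was called without line LCS4 (2.06, adjusted p = 0.0278) or LCS5 (2.08, adjusted p = 0.0259). Fibroblast and stellate cell sums were at most 30.8 CPM in LCS and 33.3 CPM in HBS organoids. These 3 comparisons share groups with each other.

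Tumour tissue was also set against the organoids that bear related names. LCS-driven primary tumours held less Cdh1 than LCS organoids (-1.79 ± 0.30, adjusted p = 0.000116) and more Vim (2.51 ± 0.92, adjusted p = 0.0282), both without overlap when the libraries of a line were summed, and more Zeb2 (2.03 ± 0.65, adjusted p = 0.0141) and Snai1 (1.99 ± 0.59, adjusted p = 0.00835). The calls were 4 of 9 members, against 60.5% of all 17540 genes (30.7% higher, 29.9% lower), and the Vim call was lost without line LCS3 (adjusted p = 0.0527), while without LCS1 the change was 3.14. PPTR primary tumours held less Cdh1 (-4.12 ± 0.46, adjusted p = 7.38e-07) and more Cdh2 (2.23 ± 0.36, adjusted p = 3.81e-05) than the same organoids, again without overlap, and Zeb2 at 1.31 ± 0.57 higher sat at the threshold (adjusted p = 0.0482, and 0.116 without line LCS1, 0.114 without LCS2, 0.0796 without LCS4 0.0651 without PPTR primary tumour 9 and 0.0506 without PPTR primary tumours 10 and 11). Snai2 was called higher without LCS2 (1.09, adjusted p = 0.0414) or LCS3 (1.08, adjusted p = 0.0442). These were 3 of 7 members, against 69.5% of all 16931 genes (34.4% higher, 35.2% lower). All 14 fibroblast and stellate cell markers and all 8 endothelial markers were higher in both kinds of tumour than in the organoids, as were 7 of 8 hepatocyte markers in LCS-driven and 8 of 8 in PPTR tumours. Biliary markers were lower in 2 of 6 and 5 of 6 cases. Their part in the result was not tested.

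PNR primary tumours differed from HBS organoids in 5 of 8 members, against 66.1% of all 17197 genes (31.5% higher, 34.6% lower). Zeb1 (2.61 ± 0.28, adjusted p = 8.51e-07), Cdh2 (3.55 ± 0.65, adjusted p = 0.000169) and Vim (6.18 ± 0.92, adjusted p = 2.41e-05) were higher in the tumours and Cdh1 (-4.16 ± 1.13, adjusted p = 0.00405) lower, all without overlap between tumours and lines. Twist1 was lower (-3.91 ± 1.15, adjusted p = 0.00685), with at most 0.684 CPM in the tumours, while the lines ranged from no read in HBS3 to 11.3 CPM in a library of HBS5. With ribosomal repeats as a covariate the Twist1 call was lost (-2.78 ± 1.59, adjusted p = 0.150). In this comparison 13 of 14 fibroblast and stellate cell markers and all 8 hepatocyte markers were higher in the tumours and 3 of 6 biliary markers lower, and their part was not tested.

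HBS1_F2 organoids, whose label carries the HBS1 line's name, combined high Zeb1, Cdh2 and Vim with fewer reads in several epithelial genes. Against the 4 HBS1 libraries Zeb1 was 3.76 ± 0.33 higher (72.4, 97.5, 67.0 and 121 CPM against 6.18, 3.96, 7.26 and 8.13 CPM, adjusted p = 0.00320). Vim was 6.65 ± 0.71 higher (94.0, 479, 177 and 130 CPM against 2.01, 0.799, 2.99 and 2.51 CPM, adjusted p = 0.00388), and Cdh2 3.19 ± 0.57 higher (373, 131, 348 and 411 CPM against 41.9, 13, 22.7 and 55.9 CPM, adjusted p = 0.0150). The 2 sets of libraries did not overlap in any of the 3, which are 3 of 9 members, against 13.7% of all 15601 genes (8.02% higher, 5.63% lower). Cdh1, at 356, 462, 771 and 137 CPM, lay below all HBS1 libraries but was not called by edgeR (-1.44 ± 0.47, adjusted p = 0.0747), while DESeq2 called it lower (-1.42, adjusted p = 0.0287), as did edgeR without HBS1_F2 organoid 3 (-1.86, adjusted p = 0.0499). This comparison was added after the values were seen, and each side is 1 line. Without HBS1_F2 organoid 2 the 3 calls stood, with Vim at 5.99, and Snai1 joined them (2.76 ± 0.83, adjusted p = 0.0329), without organoid 4 Twist1 was lower (-5.75 ± 1.24, adjusted p = 0.0405), and without HBS1 library 4 Cdh2 gave an adjusted p of 0.0507. With the share of reads in ribosomal repeats as a covariate, 0 members were called: the changes were 4.29 for Zeb1 (adjusted p = 0.231), 5.42 for Vim (adjusted p = 0.277) and 3.94 for Cdh2 (adjusted p = 0.281). Fibroblast and stellate cell sums in the HBS1_F2 organoids were 724, 4.80, 727 and 4063 CPM, against 8.06 to 33.3 CPM in the HBS1 libraries. All 14 markers of that list had reads in the HBS1_F2 organoids. In organoid 2, whose sum was 4.80 CPM, Zeb1 lay within the range of the other 3, Vim above it and Cdh2 below it. Organoid 2 is 1 library, and its Rpl34-ps1 share was 84.8%, against 8.11% to 19.3% in the other 3. The part of fibroblast content in the 3 calls was not tested.

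The 5 HBS1_F2-driven tumours held less Zeb1 than the HBS1_F2 organoids, at 21.9 to 50.7 CPM against 67.0 to 121 CPM with no overlap (-1.46 ± 0.30, adjusted p = 0.00541). Cdh2, at 132 to 184 CPM in the tumours, was called lower (-0.94 ± 0.33, adjusted p = 0.0468). It was lost when any 1 of the 5 tumours or of organoids 1, 3 and 4 was left out (adjusted p of 0.0533 to 0.116). Without organoid 1 or organoid 3, Zeb2 was called lower (-1.51, adjusted p = 0.0404, and -1.47, adjusted p = 0.0493), and without organoid 4 Cdh1 was (-1.03, adjusted p = 0.0323). Of the markers, 7 of 8 endothelial and 5 of 8 hepatocyte markers were higher in the tumours (hepatocyte sums of 2950 to 14041 CPM against 57.8 to 1486 CPM), and their part was not tested. The calls were 2 of 7 members, against 40.1% of all 16255 genes (18.5% higher, 21.6% lower). No identifier series held both these tumours and these organoids. Between the 3 HBS1_F2-driven metastases and the 4 HBS1-driven and HBS1_F2-driven primary tumours edgeR called 0 of 7 members and 0 of all 15799 genes (0%), where 1271 genes and 0 members had an unadjusted p under 0.05 and DESeq2 called 171 genes and 0 members.

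**Figure D4:**
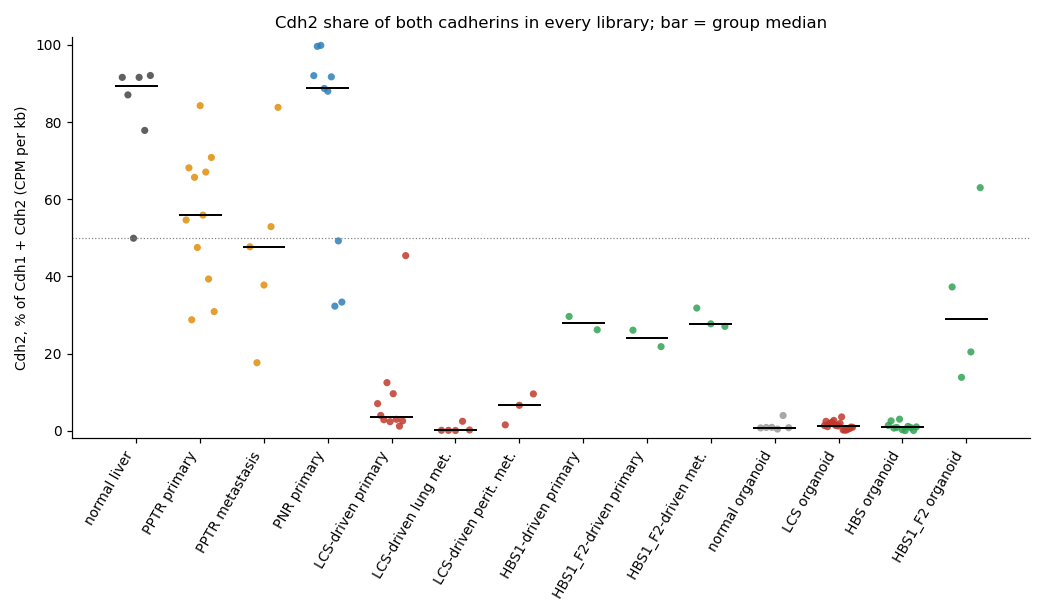
Cdh2 as a percentage of Cdh1 plus Cdh2, each per kilobase of exon, in every library by group, with a bar at the median. The median was 89.3% in normal liver, 55.9% in PPTR primary tumours, 3.45% in LCS-driven primary tumours and at most 1.33% in normal, LCS and HBS organoids.

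Per kilobase of merged exon (annotation of GRCm38, another build than that of the counts), N-cadherin was the main cadherin of the pair in 5 of 6 livers and a minor one in normal, LCS and HBS organoids. Cdh2 made up a median of 89.3% of Cdh1 plus Cdh2 in normal liver (49.9% to 92.1%, above 50% in 5 of 6 libraries), 88.7% in PNR primary tumours (32.3% to 99.9%, above 50% in 6 of 9) and 55.9% in PPTR primary tumours (28.7% to 84.3%, above 50% in 7 of 11). It was 47.7% in PPTR metastases, 3.45% in LCS-driven primary tumours (1.17% to 45.4%) and 0.0920% in their lung metastases. HBS1-driven primary tumours, HBS1_F2-driven primary tumours and HBS1_F2 organoids had medians of 27.9%, 23.9% and 28.8%, with HBS1_F2 organoid 4 at 63.0%. On the same per-kilobase scale the repressor genes in normal liver were far below Cdh2, while Cdh1 lay between Zeb2 and Zeb1: the medians were 2.65 CPM per kb for Zeb2, 1.96 for Zeb1, 1.58 for Snai2 and 0.125 for Snai1, with Twist1 and Twist2 at 0, beside 17.7 for Cdh2, 2.29 for Cdh1 and 6.27 for Vim.

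Other genes of the same processes were read from a list of 20 inducers and mesenchymal effectors and a list of 20 epithelial genes. The first list includes signalling and adhesion genes such as Tgfbr1, Smad2, Smad3, Smad4 and Itgb1, so it is not made up of mesenchymal genes only. In LCS-driven primary tumours against liver, 18 of 20 of the first list were higher and 0 lower, with a median change of 1.97, beside 0.13 over all genes. Lox, which cross-links collagen (9.10 ± 0.94, adjusted p = 5.80e-07), Cdh11, a mesenchymal cadherin (6.80 ± 0.92, adjusted p = 8.91e-06), and the matrix protease Mmp2 (5.58 ± 0.87, adjusted p = 3.79e-05) rose most. Of the epithelial list 15 of 20 were higher and 1 lower, with a median of 2.33: the intestinal cadherin Cdh17 rose by 9.45 ± 1.10, the adhesion molecule Epcam by 8.11 ± 0.62 and the splicing regulator Esrp1 by 7.49 ± 0.71, and Esrp2 fell by 1.29 ± 0.20. Against PPTR tumours the counts were 13 of 19 higher and 0 lower in the first list and 14 of 18 higher and 2 lower in the second. In the same 2 comparisons 10 and 11 of 14 fibroblast markers were higher, and their part in the counts was not tested.

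In the other tissues smaller shares of both lists were called. The share of all genes called fell too, from 63.4% in LCS-driven tumours against liver to 31.1% in PPTR and 47.7% in PNR tumours. It was 31.7% in PPTR metastases and 14.8% in LCS-driven lung metastases, each against their primaries. Whether the lists fell more than all genes was not tested. PPTR primary tumours had 8 of 19 genes of the first list higher than liver and 0 lower (median 0.76), among them the ligand gene Tgfb2 (3.37 ± 0.61). They had 4 of 15 epithelial genes higher and 0 lower (median 0.14). PNR primary tumours had 9 of 19 genes of the first list higher and 2 lower (median 0.87), with the transcription factor gene Foxc1 at 7.0 ± 1.68. They had 7 of 15 epithelial genes higher (median 1.04). In PPTR metastases against primaries 6 of 19 genes of the first list were higher (median 0.50), with Cdh11 at 3.89 ± 0.87. Epcam rose by 5.97 ± 0.66 among 4 epithelial genes higher and 2 lower of 15. In LCS-driven lung metastases Lox (-2.42 ± 0.70), Prrx1 (-1.82 ± 0.59) and the matrix gene Fn1 (-1.02 ± 0.29) fell with the fibroblast markers given above, and the receptor gene Tgfbr2 rose by 0.51 ± 0.12.

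Normal liver organoids had 19 of 20 epithelial genes higher than liver (median 4.07), led by Esrp1 at 9.21 ± 0.53. Of the list of inducers and mesenchymal effectors 8 of 17 were higher and 3 lower (median 0.47), with the matrix gene Sparc at -8.04 ± 0.47. Of all genes 38.1% were higher and 36% lower in this comparison. Between organoid kinds few list genes were called, among them Sparc, higher in LCS lines than in normal organoids (7.19 ± 1.62, adjusted p = 0.0273) and HBS lines (6.59 ± 1.60, adjusted p = 0.0449). In HBS1_F2 against HBS1 organoids 12 of 20 epithelial genes were lower and 0 higher (median -2.42): Epcam fell by 6.94 ± 1.27, the epithelial transcription factor gene Grhl2 fell by 6.76 ± 0.78 and Esrp1 fell by 5.95 ± 0.99. Sparc (10.23 ± 0.97), Fn1 (2.65 ± 0.60) and Tgfb2 (2.44 ± 0.68) were the 3 of 18 inducers and mesenchymal effectors that rose. Of all genes 8.02% were higher and 5.63% lower there.

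**Figure D5:**
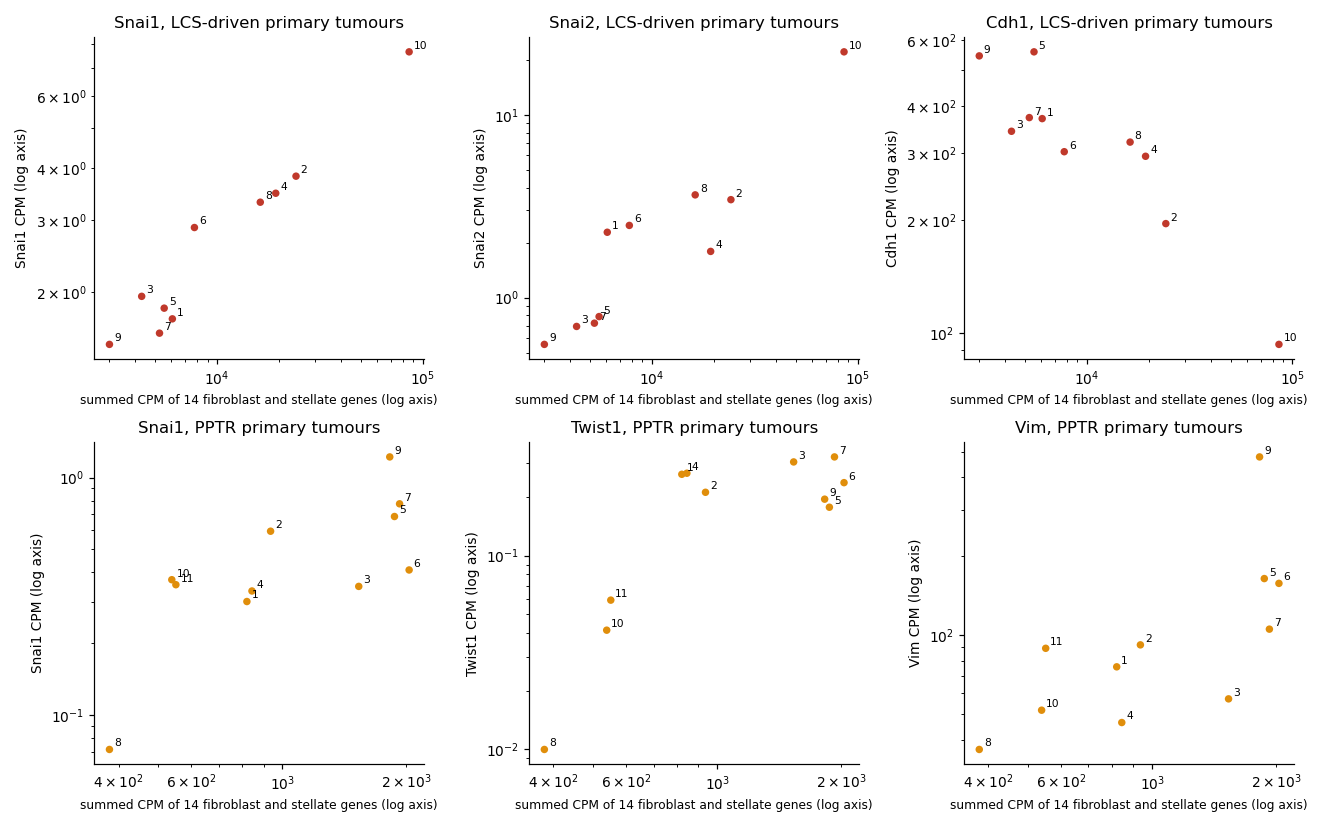
Levels of members against the summed level of 14 fibroblast and stellate cell markers, both as CPM on log axes, for Snai1, Snai2 and Cdh1 in LCS-driven (n = 10) and Snai1, Twist1 and Vim in PPTR (n = 11) primary tumours, each point labelled with its replicate number. Snai1 rises with the marker sum in both groups (Pearson r of 0.97 and 0.75 on log2 values).

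Among primary tumours, some members followed the fibroblast and stellate cell sum. Over 18 relations (9 members in 2 groups), Pearson's r was computed on log2 values with 100000 permutations and adjusted by Benjamini and Hochberg. In the 10 LCS-driven primary tumours r was 0.97 for Snai1 (Spearman's rho 0.92, permutation p = 0.0001 and 0.00066, adjusted 0.0018 and 0.00594), 0.92 for Snai2 (rho 0.90, permutation p = 0.00062 and 0.0006, adjusted 0.00372 and 0.00594) and -0.91 for Cdh1 (rho -0.87, permutation p = 0.00042 and 0.00218, adjusted 0.00372 and 0.0131). Without the 2 tumours farthest from the median sum, r was 0.92, 0.77 and -0.68. In the 11 PPTR primary tumours r was 0.75 for Snai1 (rho 0.70, permutation p = 0.0058 and 0.0208, adjusted 0.0209 and 0.0749), 0.79 for Twist1 (rho 0.58, permutation p = 0.00486 and 0.0658, adjusted 0.0209 and 0.169) and 0.70 for Vim (rho 0.78, permutation p = 0.0086 and 0.00646, adjusted 0.0258 and 0.0291). Without the 2 farthest tumours these were 0.71, 0.68 and 0.59. Twist1 held 62 reads over the 11 PPTR tumours together (at most 0.323 CPM, 1 tumour at 0) and Snai1 176. Counting noise therefore limits both relations. The other 12 relations had adjusted p-values above 0.05, among them Vim in LCS-driven tumours (r 0.32, rho 0.22, permutation p = 0.374 and 0.532, adjusted 0.449 and 0.684, and r -0.43 without the 2 farthest).

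The miR-200 host transcripts were read as a description, after the other results were known. Mir200a and Mir200b together had a median of 0 CPM in normal liver (3 reads, with 4 of 6 libraries at 0), 0.0734 CPM in PPTR primary tumours, 0.130 CPM in PNR primary tumours and 0.631 CPM in LCS-driven primary tumours. The highest medians were 1.56 CPM in HBS organoids, 1.5 CPM in LCS-driven lung metastases, 1.21 CPM in normal organoids and 1.01 CPM in LCS-driven peritoneal metastases, while LCS organoids had a median of 0.0704 CPM (at most 4.17). Mir200c had 37 reads in normal, 68 in HBS and 20 in LCS organoids, and no read in any library of normal liver or of PPTR, PNR or LCS-driven primary tumours. Libraries of total RNA of usual fragment length do not measure the mature miRNAs printed above, so these are reads at the miRNA gene symbols only.

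Genes with the most similar pattern were found by Spearman's rho over 96 libraries among 11003 genes, a description over libraries that share lines and tissues. Cdh1 was closest to the receptor tyrosine kinase gene Erbb2 (rho 0.93), the calcium channel gene Itpr3 (0.91) and Trpm4 (0.91). Cdh2 was closest to Cbs, an enzyme gene of homocysteine metabolism that hepatocytes express (0.87), the collagen gene Col18a1 (0.86) and the syndecan gene Sdc2 (0.84). Vim was closest to Pmp22 (0.86), Dpysl3 (0.86) and Loxl2 (0.85). The repressor genes had weaker partners: Zeb2 with Plekho2 (0.83), Snai1 with the endocytic collagen receptor gene Mrc2 (0.80), Zeb1 with Iffo1 (0.79), Twist1 with Fndc1 (0.71), Twist2 with Chsy1 (0.69) and Snai2 with Fez2 (0.62).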

How the data were processed

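The deposited files held counts, that is, reads per gene symbol in each of 96 libraries, which the authors gave without normalisation. Per the labels' protocols, total RNA was isolated with an RNeasy Micro kit and sequenced by a stranded protocol. The submitters' processing notes name BWA, STAR, HTSeq and build mm9. Versions and annotation: not given in the sources used here.

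Samples were grouped by their labels. 18 comparisons, and 1 added after the values were seen, were fitted on their own groups with edgeR 4.0.16 in R 4.3.3: filterByExpr (minimum count 10, minimum total 15), TMM scaling, the quasi-likelihood test and Benjamini-Hochberg adjustment over all genes tested, with calls at an adjusted p under 0.05. The 3 LCS-driven tissues shared a fit. LCS and HBS organoid counts were summed per line (5 and 6 lines). DESeq2 1.42.0, RLE scaling, no filter, the ribosomal-repeat share or the identifier series as covariates, single organoid libraries as replicates, and leaving out libraries were the alternatives. The script was tested on simulated data. Levels are CPM with TMM factors over all libraries. Depth ran from 4.39 M to 87.1 M gene reads.

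The 9 members are named in every comparison, with up to 3 called genes of largest change per direction from each of 2 gene lists (mean of at least 5 CPM), and the 3 genes of most similar pattern per member. The members, lists and comparisons were chosen with earlier results of these data known. The miR-200 rows were chosen after the values were seen.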

Additional observations from a re-analysis of the deposited data

Results flagged for a closer look

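Within each group of 4 to 10 libraries, a library was singled out where its gap to the nearest other library, as a share of the group's range, passed Dixon's 95% critical value. Of 63 sets of values checked, 17 had such a library. The critical value assumes normally distributed values, while these are CPM that were not log-transformed, so the count cannot be set against chance.

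LCS-driven primary tumour 10 stood above its group in 4 members: Zeb1 at 62.4 CPM (next 28.5), Snai1 at 7.67 CPM (next 3.83), Snai2 at 22.1 CPM (next 3.65) and Cdh2 at 137 CPM (next 74.0). Its fibroblast and stellate cell sum of 85962 CPM was also the highest of the group, and the part of this in the 4 values was not tested.

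Normal organoid 5 was highest in 4 members, with 19 CPM of Zeb1 (next 7.28), 3.63 CPM of Twist2 (next 0.941), 87.6 CPM of Cdh2 (next 21.2) and 113 CPM of Vim (next 11.9). Normal liver 3 was highest in 3, with 34.1 CPM of Zeb1 (next 21.6), 0.939 CPM of Twist1 (12 reads, next 0.170) and 84.4 CPM of Cdh1 (next 22.3).

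LCS-driven lung metastasis 4 held 3.56 CPM of Twist1 (next 0.396) and 16 CPM of Cdh2 (next 1.02). HBS1_F2 organoid 4 held 4.92 CPM of Twist1 (next 0.0405), and HBS1_F2 organoid 2, which also stood apart in Rpl34-ps1, held 23.1 CPM of Twist2 (next 1.90). PNR primary tumour 8 was lowest in Cdh2 at 144 CPM (next 198), and PNR primary tumour 6 was highest in Vim at 328 CPM (next 172).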

How the results depend on the processing

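Over all alternatives, the number of members called stayed within 1.5 times its first value in 154 refits and moved in 34. Single members kept direction and call in 1323 refits, lost the call in 66, gained it in 26 and changed sign without a call in either fit in 75. A call or its direction reversed in 3: Snai2 in PNR tumours against liver (2.22 with the share of reads in ribosomal repeats as a covariate) and in LCS-driven tumours against liver (-0.92 by DESeq2, -0.99 without LCS-driven primary tumour 10, where leaving out 1 library at a time gave -0.99 to 0.13). The causes were not tested. With ribosomal repeats as a covariate the members called were 0 in PPTR, 0 in PNR, 3 in LCS-driven primary tumours and 0 in normal organoids against liver, 1 in HBS1_F2-driven tumours against HBS1_F2 organoids and 0 in HBS1_F2 against HBS1 organoids. Within the smaller identifier series LCS-driven against PPTR tumours gave 0. LCS-driven lung metastases against primaries gave 1 with no filter, 4 by DESeq2, 0 with the identifier series as a covariate and 0 with the close pair summed. DESeq2 called 2 in lung against peritoneal metastases, 2 in HBS against normal organoids, 3 in LCS against HBS organoids and 6 in HBS1_F2 against HBS1 organoids. RLE scaling gave 1 in HBS1_F2-driven tumours against HBS1_F2 organoids.

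Leaving out libraries or lines gave 1 to 3 members in PPTR tumours against liver, 3 to 4 in PNR tumours against liver, 6 in LCS-driven tumours against liver, 4 in PPTR against PNR tumours, 5 to 6 in LCS-driven against PPTR tumours, 0 to 2 in lung metastases against primaries, 0 to 1 in lung against peritoneal metastases, 3 in PPTR metastases against primaries, 5 to 6 in normal organoids against liver, 0 to 2 in LCS against HBS organoids, 3 to 4 in LCS-driven tumours against LCS organoids, 2 to 4 in PPTR tumours against LCS organoids, 1 to 3 in HBS1_F2-driven tumours against HBS1_F2 organoids and 2 to 4 in HBS1_F2 against HBS1 organoids. No paired analysis was possible because replicate numbers were given in accession order or name libraries of a line, and pair no samples across groups.

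Counts over all genes moved by more than 1.5 times as follows. With ribosomal repeats as a covariate they went from 4763 to 2441 in PPTR, 7512 to 3 in PNR and 10415 to 3437 in LCS-driven tumours and 11114 to 680 in normal organoids against liver, from 795 to 1526 in LCS and 7 to 0 in HBS against normal organoids, from 659 to 1630 in LCS against HBS organoids and from 2130 to 0 in HBS1_F2 against HBS1 organoids. No filter gave 12546 in place of 7935 in PPTR against PNR tumours. LCS-driven against PPTR tumours gave 1206 in place of 9019 in the smaller identifier series. DESeq2 gave 658 in place of 163 in peritoneal metastases against primaries, 607 in place of 159 in lung against peritoneal metastases, 2393, 510 and 2169 in the 3 organoid comparisons in the order above, 171 in place of 0 in HBS1_F2-driven metastases and 4570 in HBS1_F2 against HBS1 organoids. With the identifier series as a covariate the 3 LCS-driven comparisons gave 225 in place of 2724 (lung against primary), 0 (peritoneal against primary) and 64 (lung against peritoneal). With the close pair summed, 1411 and 79 were called in the comparisons of lung metastases with primaries and peritoneal metastases. Single libraries as replicates gave 1957 in LCS against normal organoids. Leaving out libraries or lines gave 1378 to 3234, 0 to 180 and 26 to 234 in these 3 LCS-driven comparisons, 321 to 1254 in LCS against normal organoids, 126 to 1291 in LCS against HBS organoids and 559 to 6276 in HBS1_F2 against HBS1 organoids, and 1 in HBS against normal organoids without normal organoid 5. Depth limits Twist1, Twist2 and Snai1, which hold few reads in liver and organoids, and group sizes of 2 to 5 limit the metastasis and HBS1 comparisons.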
